A study of Macaca fascicularis with 16 samples.

Results

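Of the 27966 Ensembl identifiers counted in lung tissue of the cynomolgus monkey, 7 are described here across age and sex. They were chosen by their measured levels in these same libraries: they are the genes, 7 of 15472 tested (0.0452%), that a test of old against young lungs over both sexes called lower in old lungs. A gene is called where its p from the quasi-likelihood test of edgeR, adjusted by Benjamini-Hochberg over all genes tested, is below 0.05. The difference with age is therefore how the genes were found, and its values are given below as a description. All 7 passed the filter on low counts. The 7 are ENSMFAG00000038356, ENSMFAG00000045597, ENSMFAG00000039249, ENSMFAG00000017322, ENSMFAG00000002117, ENSMFAG00000031492 and ENSMFAG00000042817.

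The cynomolgus monkey (Macaca fascicularis) is an Old World monkey, and the study sequenced RNA of whole lung tissue from 4 groups of 4 libraries: old and young females, and old and young males. The labels give an age class and a sex but no age in years, no treatment and no strain. They do not state that the 4 libraries of a group come from 4 animals, so the spread behind the p-values below is one between libraries and may be technical.

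Lung tissue mixes epithelial cells of the airways and of the gas-exchanging alveoli with blood vessel cells, connective tissue cells and immune cells. In such bulk RNA, fewer cells of a type and less RNA per cell cannot be told apart. The identifiers were not paired with symbols, positions or sequences here (0 of 7, and 0 of all 27966, matched a table of 40596 genes), so the function of the 7 genes is not given, and the tissue label could not be checked against marker genes. Gene lengths were not used either, so levels are compared between libraries and never between genes.

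The libraries held 6529562 to 11718427 counts of genes. A level is a count per 1000000 of these (CPM). The lowest count of any of the 7 genes in any library was 44 and the highest 1930. Old female 1 and old male 3 stand apart on the first principal component of the other genes tested, which held 32.1% of the variance: they lie at -100.1 and -63.0, the others between -27.7 and 43.2.

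ENSMFAG00000038356 had the largest relative difference between the age classes of the 7 genes with the sexes pooled and in males; in females ENSMFAG00000045597 and ENSMFAG00000039249 had larger ones. Young females had 28.5, 34.1, 19.3 and 18.3 CPM (mean 25.05 ± 7.58; each group is 4 libraries and each error an SD) and old females 10.3, 7.62, 10.3 and 8.86 CPM (9.25 ± 1.27). Young males had 28.2, 10.1, 30.03 and 21.04 CPM (22.3 ± 9.05), compared with 6.07, 5.47, 6.65 and 5.01 CPM (5.801 ± 0.716) in old males. The 4 old males lay below the 4 old females, and within each sex all old libraries lay below all young ones. Young male 2, at 10.1 CPM, was far below the other young libraries and just under old females 1 and 3, so old and young libraries overlapped across the sexes. The mean level was 2.71-fold lower in old than in young females and 3.85-fold lower in old than in young males.

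ENSMFAG00000045597 had its lowest levels in old females. Young females had 186, 110.3, 155 and 91.9 CPM (mean 136 ± 42.8, SD, n = 4) and old females 27.7, 42.2, 60.98 and 41.1 CPM (42.99 ± 13.7). In young males the values were 208, 165, 152 and 139 CPM (166 ± 30.1) and in old males 133, 85.8, 85.8 and 81.6 CPM (96.5 ± 24.3). Old females lay below old males with no overlap, and the young groups overlapped. Old male 1 stood at 133 CPM, above young females 2 and 4, while the other 3 old males lay close together. The mean was 3.16-fold lower in old than in young females and 1.72-fold lower in old than in young males.

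ENSMFAG00000039249 had low counts and old and young libraries that almost met. Young females had 16.5, 26.9, 22.5 and 27.7 CPM (mean 23.4 ± 5.12, SD, n = 4) and old females 6.45, 11.00, 9.24 and 6.59 CPM (8.32 ± 2.199). Young males had 17.9, 18.9, 20.7 and 15.6 CPM (18.3 ± 2.12), compared with 12.1, 15.6, 8.15 and 5.88 CPM (10.4 ± 4.29) in old males. The highest old library, old male 2 at 15.57 CPM, was just below the lowest young one, young male 4 at 15.60 CPM. Relative to their mean, old males spread most, with a coefficient of variation of 41.1%, against 11.6% in young males. The mean was 2.81-fold lower in old females and 1.75-fold lower in old males than in the young of the same sex.

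ENSMFAG00000017322 fell into an upper and a lower band by age, with both sexes in each. Young females had 44.6, 36.6, 46.5 and 41.3 CPM (mean 42.3 ± 4.33, SD, n = 4) and old females 19.7, 25.7, 24.6 and 17.3 CPM (21.8 ± 3.98). In young males the values were 45.9, 44.8, 31.8 and 30.02 CPM (38.1 ± 8.397) and in old males 26.4, 28.2, 19.96 and 19.8 CPM (23.6 ± 4.33). Young males split into libraries 1 and 2, near the young females, and libraries 3 and 4, which came close to the highest old males. The means were 1.94-fold and 1.62-fold lower in old females and old males.

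ENSMFAG00000002117 had young libraries close together and old females lowest. Young females had 85.3, 74.04, 81.8 and 84.8 CPM (mean 81.5 ± 5.195, SD, n = 4) and old females 35.6, 37.7, 52.7 and 49.96 CPM (43.98 ± 8.57). Young males had 68.00, 87.7, 73.9 and 70.7 CPM (75.1 ± 8.77), compared with 51.1, 59.3, 45.8 and 59.4 CPM (53.9 ± 6.64) in old males. Old females fell into libraries 1 and 2, at the low end, and libraries 3 and 4, which overlapped the old males. The means were 1.85-fold lower in old females and 1.39-fold lower in old males.

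ENSMFAG00000031492 was lowest in old males. Young females had 46.5, 41.6, 44.9 and 54.9 CPM (mean 46.97 ± 5.68, SD, n = 4) and old females 36.7, 33.99, 35.5 and 34.4 CPM (35.1 ± 1.200). In young males the values were 49.6, 51.03, 42.4 and 51.4 CPM (48.6 ± 4.22) and in old males 35.5, 30.7, 25.5 and 28.6 CPM (30.1 ± 4.204). The 4 old females were nearly alike, and old male 1 lay among them while the other 3 old males lay below. Here the mean was 1.34-fold lower in old females and 1.62-fold lower in old males.

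ENSMFAG00000042817 differed from the other genes in how alike its young libraries were. Young females had 75.7, 76.9, 77.4 and 80.4 CPM (mean 77.6 ± 1.997, SD, n = 4) and old females 52.8, 55.9, 60.4 and 48.1 CPM (54.3 ± 5.18). Young males had 81.02, 79.1, 77.3 and 79.9 CPM (79.3 ± 1.54), compared with 55.7, 62.04, 42.5 and 59.6 CPM (54.96 ± 8.68) in old males. All 8 young libraries lay between 75.7 and 81.02 CPM, while the 8 old ones ran from 42.5 to 62.04 CPM, with old male 3 lowest. The means were 1.43-fold and 1.44-fold lower in old females and old males.

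**Figure D1:**
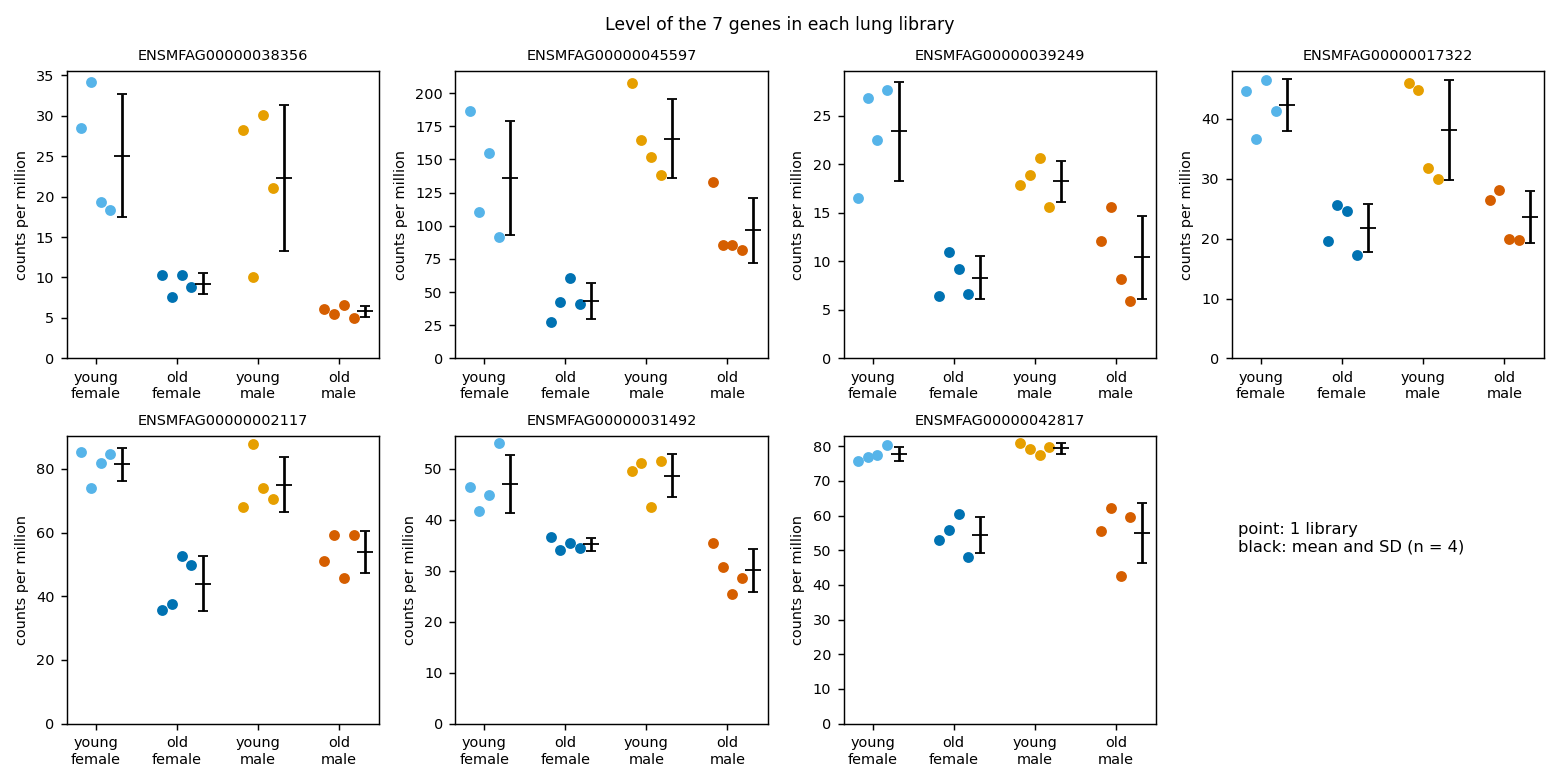
Level of each of the 7 genes in CPM (linear axis from 0) in every library, by group; each point is 1 library, and the black mark gives the mean and SD of 4 libraries. In each panel the old libraries of a sex lie below all young libraries of that sex, and in the panel of ENSMFAG00000042817 the 8 young libraries lie between 75.7 and 81.0 CPM.

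Every old library lay below every young library in 5 of the 7 genes; among all genes tested this held for 39 of 15472 (0.252%). The exceptions were ENSMFAG00000038356 and ENSMFAG00000045597. Within females the same separation held for 7 of the 7 genes, against 7.6% of all genes tested, and within males for 7 of 7, against 2.23%. Because the genes were picked for a large difference between these libraries, such counts follow from the choice and nothing is read from them. The distance between the groups was uneven: in ENSMFAG00000042817 the lowest young library was 1.22 times the highest old one, and in ENSMFAG00000039249 the lowest young and highest old library were nearly equal.

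In the model over all genes the log2 difference, old minus young over both sexes, ran from -1.68 (SE 0.204) in ENSMFAG00000038356 to -0.52 (SE 0.0790) in ENSMFAG00000042817. Its median over the 7 genes, which were chosen by this difference, was -0.82, against 0.01 over all genes tested. The gene nearest the threshold from inside was ENSMFAG00000039249, with a log2 difference of -1.14 (SE 0.191) and an edgeR adjusted p of 0.0369. Among genes lower in old lungs, the nearest outside it was ENSMFAG00000003544, with -0.51 (SE 0.0903) and an edgeR adjusted p of 0.0520. With RLE in place of TMM scaling factors, the numbers of genes called higher and lower in old lungs changed from 2 and 7 to 11 and 11.

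How far the choice of these 7 depended on the analysis was uneven among them. ENSMFAG00000038356 was called in each of 24 other settings, which changed the scaling, the filter or the tool, added a term or left out libraries. ENSMFAG00000042817 was called in 21 of the 24, ENSMFAG00000045597 in 20, ENSMFAG00000017322 and ENSMFAG00000031492 in 19 each and ENSMFAG00000002117 in 18. ENSMFAG00000039249 was called in 10, and kept its call in 4 of the 16 fits that left out 1 library. Without young female 3 the 7 genes kept 1 call, without young female 4 or old male 4 they kept 2 calls, and without old male 3 they kept 3. Without old female 1 and old male 3 together they kept 2. Such calls are not a trait of a gene alone, because an adjusted p depends on all genes tested. Without young female 3, for example, ENSMFAG00000045597 and ENSMFAG00000042817 shared an edgeR adjusted p of 0.0535. The count of all genes called changed too: it was 6 with the replicate number as a block and 589 with DESeq2, against 9. In none of the 168 refitted values of the 7 genes did the direction change or the log2 difference move by more than the SD within groups. All settings reuse all or nearly all of the libraries that chose the genes, and leaving out 1 library can move a difference only a little. Nothing is therefore read from this.

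**Figure D2:**
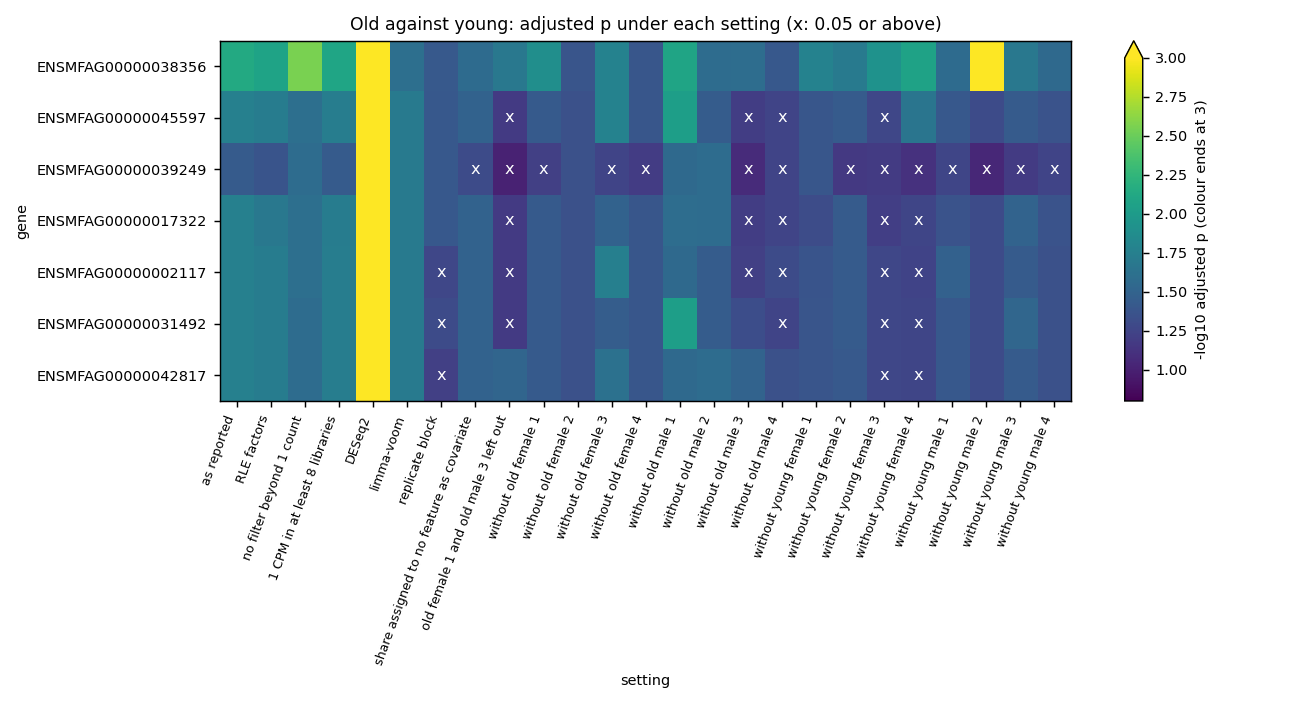
Negative log10 of the adjusted p of old against young for each of the 7 genes (vertical) under the reported analysis and 24 other settings (horizontal); a cross marks an adjusted p of 0.05 or above, and colours end at 3. ENSMFAG00000038356 has no cross, and ENSMFAG00000039249 has the most, 14 of 24.

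Whether the difference with age is the same in both sexes was tested by the age-by-sex interaction, which played no part in the choice of the genes. edgeR called 0 of the 7 genes and 0% of all genes tested, of which 986 had an unadjusted p under 0.05. DESeq2 and limma-voom also called 0 of the 7, though DESeq2 called 55 of all genes tested. At an unadjusted p under 0.05 there was 1 of the 7, ENSMFAG00000045597. Its log2 difference with age was -1.63 (SE 0.262) in females and -0.79 (SE 0.255) in males, 0.83 higher in males (SE 0.361, edgeR unadjusted p = 0.0352, adjusted p = 0.747). The difference therefore did not pass.

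The other 6 genes lay on both sides of 0. In ENSMFAG00000039249, ENSMFAG00000017322 and ENSMFAG00000002117 the old-young difference was larger in females, by 0.63, 0.22 and 0.36 log2 units. In ENSMFAG00000038356, ENSMFAG00000031492 and ENSMFAG00000042817 it was larger in males, with interactions of -0.53, -0.32 and -0.06. Their edgeR adjusted p ranged from 0.805 to 0.999. For ENSMFAG00000042817, whose old-young differences were -0.48 in females and -0.55 in males, the 95% interval of the interaction ran from -0.40 to 0.27. For ENSMFAG00000038356 it ran from -1.38 to 0.32, so a difference between the sexes of the size of the age effect in ENSMFAG00000042817 lies within it.

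Males and females were compared over both ages, again a contrast the choice did not use. edgeR called 0 of the 7 genes, against 0.0323% of all genes tested, and DESeq2 and limma-voom called 0 as well. At an unadjusted p under 0.05 there were 2 of the 7, and 974 of all 15472 genes tested. ENSMFAG00000045597 was 0.68 log2 units higher in males (SE 0.181, edgeR unadjusted p = 0.00182, adjusted p = 0.522). ENSMFAG00000038356 was lower in males, with a log2 difference of -0.46 (SE 0.200, edgeR unadjusted p = 0.0348, adjusted p = 0.789).

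These are the same 2 genes in which old males and old females did not overlap, which 3.01% of all genes tested also showed, in either direction. In young libraries the sexes overlapped in all 7 genes, while 5.04% of all genes tested did not overlap. The order of the groups by mean was therefore old males, old females, then the overlapping young groups in ENSMFAG00000038356, and old females, old males, then the young groups in ENSMFAG00000045597. In the remaining 5 genes both pairs of sexes overlapped, and the sex difference lay between -0.12 (ENSMFAG00000031492) and 0.05 (ENSMFAG00000002117). The narrowest 95% interval, that of ENSMFAG00000042817, ran from -0.18 to 0.16 log2 units, and the widest of the 5, that of ENSMFAG00000039249, from -0.46 to 0.35.

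**Figure D3:**
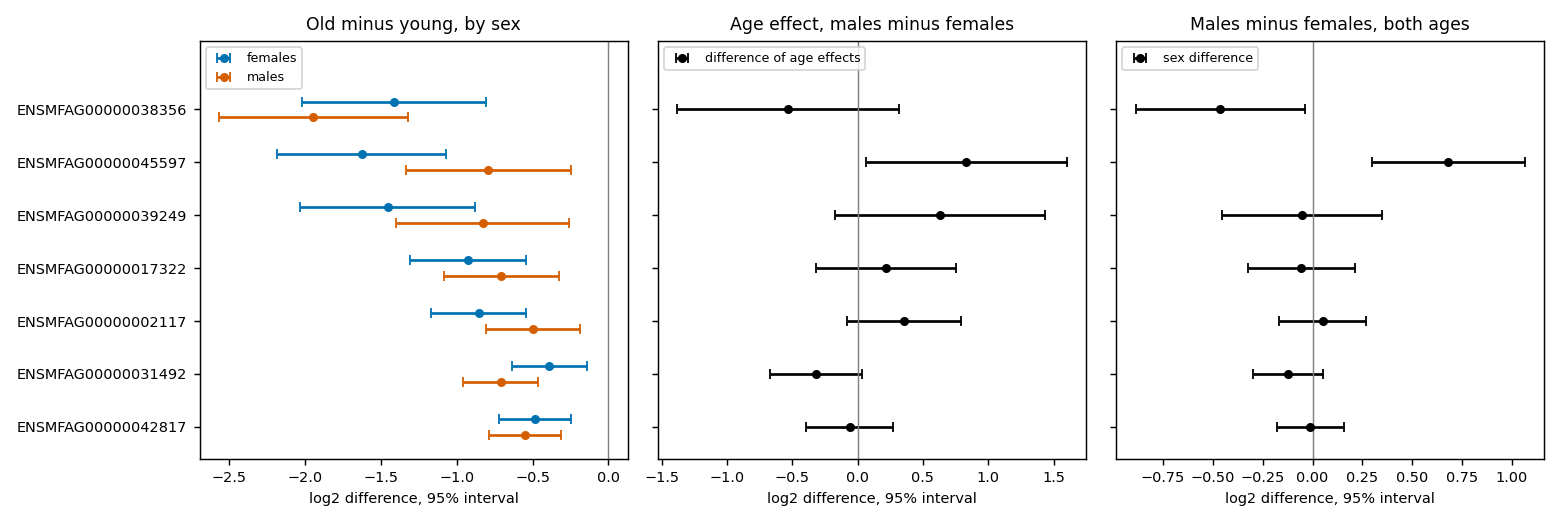
Log2 differences with 95% intervals from the model over all genes, for the 7 genes: old minus young in each sex (left), the difference between the age effects of males and females (centre; above 0 where the fall is smaller in males) and males minus females over both ages (right). The differences with age, on which the genes were chosen, lie below 0 in both sexes; in the other panels the intervals of 1 gene and of 2 genes exclude 0, and no adjusted p passes.

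The spread between libraries of a group differed among the 7 genes. The biological coefficient of variation fitted by edgeR was 12.8% for ENSMFAG00000042817, 14.1% for ENSMFAG00000031492 and 15.7% for ENSMFAG00000002117. It was 29.8% for ENSMFAG00000038356, and its median was 19.7% over the 7 genes and 23.1% over all genes tested. A small spread helps a gene pass the test that chose the set, so no more is read from these values.

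In ENSMFAG00000042817 the CPM of the 8 young libraries had a coefficient of variation of 2.41%, less than the 3.74% that counting error alone gives at its counts. In the 8 old libraries these values were 12.1% and 4.53%. The SD of log2 CPM within groups was 0.199 in old and 0.0328 in young libraries. ENSMFAG00000038356 went the other way, with 0.192 in old and 0.597 in young libraries, where young male 2 is far below its group. In young libraries the coefficient of variation and the SD of ENSMFAG00000042817 were the smallest of the 7 genes. Libraries made again would be expected to differ by at least counting error. A small spread also helps a gene pass the test that chose the set, so these values are not read as a trait of the gene. The SD was larger in old libraries in 5 of the 7 genes, and the difference in spread was not tested. The share of all genes tested with a larger SD in old libraries is not given. The libraries that stand apart on the first principal component of the other genes tested are old. The count is therefore not read as a trait of these genes.

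To see whether the 7 genes rise and fall together from library to library, each log2 CPM was set against the mean of its own group, which removes the differences that chose them. Old female 3 was above its group mean in all 7 genes (mean deviation 0.22 log2 units) and old male 1 in 6 (mean 0.18). Old male 3 was below its group mean in 6 of the 7 (mean -0.17), the exception being ENSMFAG00000038356, and old female 4 was also below in 6 (mean -0.09). The young libraries were above their group mean in 2 to 5 of the 7 genes. For none of these libraries is the share of all genes tested above the group mean given. The counts are therefore not read as a movement particular to the 7 genes. The widest single deviation, -1.02, was that of ENSMFAG00000038356 in young male 2, a library where 5 of the 7 genes were above the mean.

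**Figure D4:**
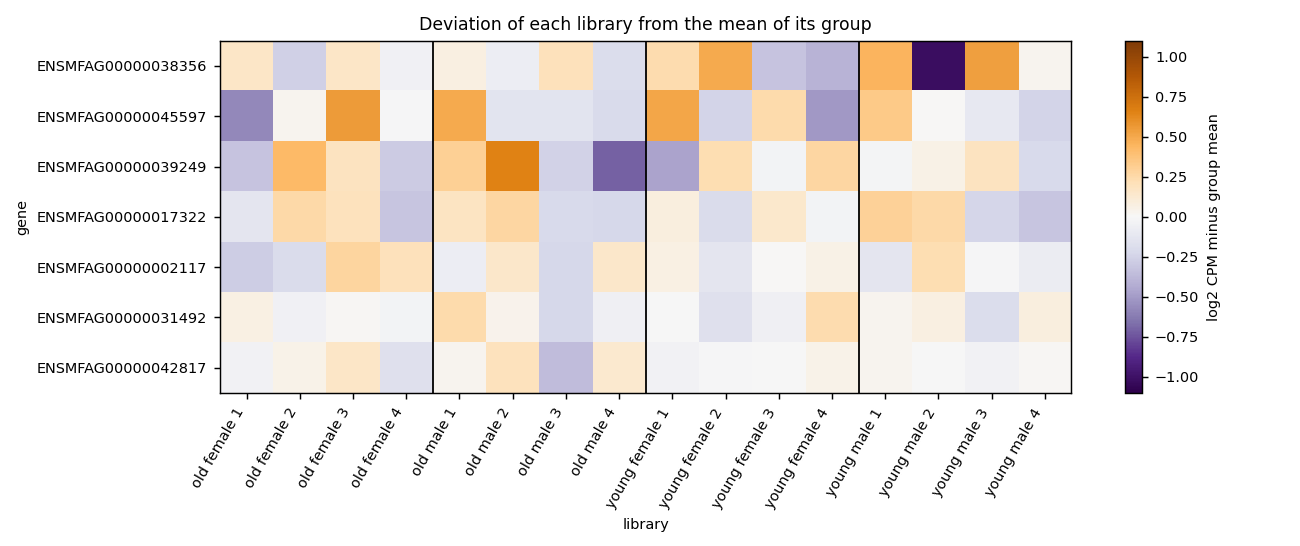
Deviation of log2 CPM from the mean of the library's own group, for each of the 7 genes (vertical) and 16 libraries (horizontal; lines part the groups). Old female 3 is above its group mean in all 7 genes, while most libraries mix genes above and below.

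Over the 16 libraries, 0 of the 21 pairs of genes had correlated deviations after adjustment over the 21 pairs (exact permutation of libraries within groups, two-sided, 331776 permutations). At an unadjusted p under 0.05 there was 1 pair by Pearson's r and there were 2 by Spearman's rho. The mean r over the pairs was 0.15 and the median 0.17, against a median of 0.01 over all pairs of genes tested, whose r ran from -0.54 to 0.57 between the 5th and 95th percentiles. The mean r was 0.26 over the 8 old libraries and -0.04 over the 8 young ones. In 14 of the 21 pairs r was higher over the old libraries, and this difference was not tested. An r of at least 0.5 was found in 2 of the 21 pairs (9.52%) and in 7.71% of all pairs of genes tested, so the share lies near the background.

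The highest correlation was that of ENSMFAG00000045597 and ENSMFAG00000017322, with r = 0.56 (n = 16, exact permutation p = 0.0316, adjusted p = 0.396) and rho = 0.49 (exact permutation p = 0.0429, adjusted p = 0.276). Without old female 3 and young female 1, the libraries farthest from the median of ENSMFAG00000045597, r was 0.54. Here and below, an r without the 2 farthest libraries keeps the group means of all 16 libraries. Next was the pair of ENSMFAG00000039249 and ENSMFAG00000017322, with r = 0.54 (exact permutation p = 0.0528, adjusted p = 0.396) and rho = 0.49 (exact permutation p = 0.0513, adjusted p = 0.276). Its r was 0.92 over the 8 old libraries and -0.15 over the 8 young ones, a difference that was not tested, and 0.40 without old males 2 and 4.

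ENSMFAG00000017322 had the highest mean r with the other 6 genes, 0.30. ENSMFAG00000038356 had the lowest, -0.21, and 5 of its 6 correlations were negative; they ran from -0.43 with ENSMFAG00000002117 to 0.12 with ENSMFAG00000045597. By rank, its relation to ENSMFAG00000042817 had rho = -0.45 (exact permutation p = 0.0423, adjusted p = 0.276), with r = -0.17 (exact permutation p = 0.208, adjusted p = 0.562). It did not pass, and r was -0.24 without young males 2 and 3. Among the other 6 genes all 15 correlations were above 0, between 0.01 and 0.56, and none passed. Of all pairs of genes tested, 50.1% had an r at least as high as the lowest of the 15. The split was made on these same correlations, and the 15 pairs share 6 genes. Nothing is therefore read from this count.

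**Figure D5:**
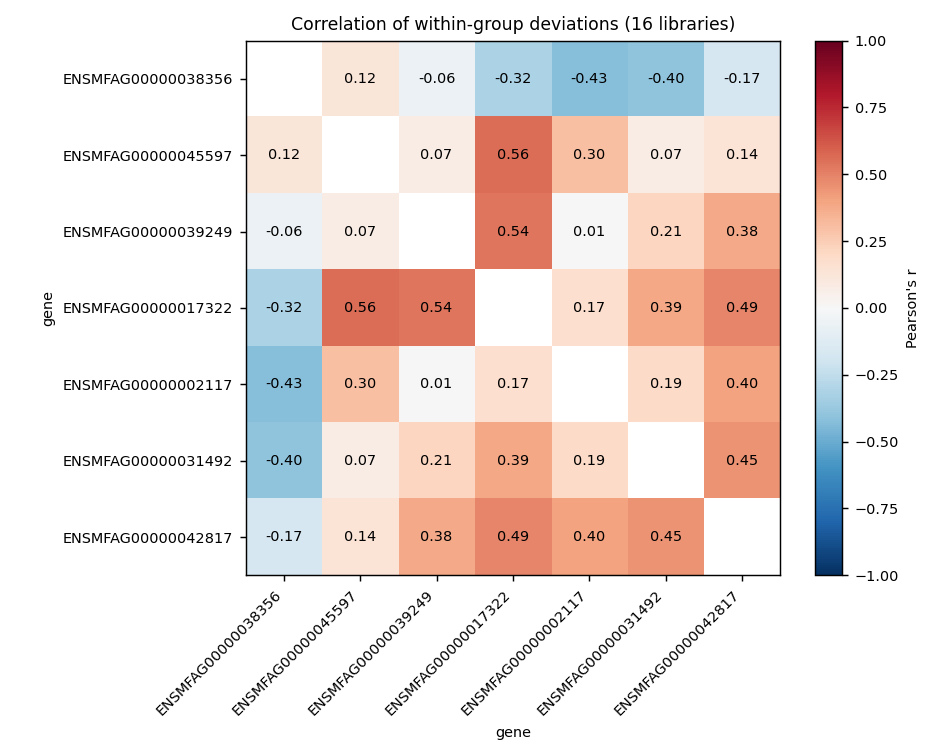
Pearson's r of the deviations from group means over 16 libraries for each pair of the 7 genes (both axes list the genes; the diagonal is left blank). Values run from -0.43 to 0.56, and the row of ENSMFAG00000038356 holds all 5 negative values.

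The deviations were also set against 3 measures of the libraries, in 21 relations. Of the reads in the deposited counts, the share given to no feature was 25.2% ± 1.21 (SD, n = 8) over old and 26.3% ± 1.86 over young libraries. It moved with ENSMFAG00000042817: r = 0.59 (n = 16, exact permutation within groups, two-sided, p = 0.000464, adjusted p = 0.00975) and rho = 0.75 (exact permutation p = 0.000280, adjusted p = 0.00589). Its r was 0.92 over the 8 old and 0.76 over the 8 young libraries, and 0.62 without old male 3 and young male 1. The last value keeps the group means of all 16 libraries, whereas the settings that leave libraries out take the means again. The relation was lost without old male 3 (r = 0.41, exact permutation adjusted p = 0.119) and with TMM-scaled library sizes (r = 0.42, exact permutation adjusted p = 0.457); over its alternatives the adjusted p ran from 0.00279 to 0.457. With that share as a term in the model, the log2 difference of ENSMFAG00000042817 with age was -0.48 (SE 0.0774), against -0.52 without it. In that model 6 of the 7 genes kept their call with age, and ENSMFAG00000039249 did not (edgeR adjusted p = 0.0502, over its 24 settings up to 0.0976). The model uses TMM scaling, with which the relation to the share did not pass, and the differences that chose the genes. The part of the share in those differences therefore cannot be read from it.

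None of the other 20 relations passed. The closest were ENSMFAG00000017322 with the same share (r = 0.59, exact permutation p = 0.0241, adjusted p = 0.169; rho = 0.57, exact permutation p = 0.0186, adjusted p = 0.194) and ENSMFAG00000002117 with the score on the first principal component (r = 0.67, exact permutation p = 0.0150, adjusted p = 0.158; rho = 0.62, exact permutation p = 0.0277, adjusted p = 0.194). Without the 2 libraries farthest out on the measure these were r = 0.46 (without old male 3 and young male 1) and r = 0.44 (without old female 1 and old male 3). The number of counts assigned to genes gave r between -0.38 and 0.57, with no unadjusted p under 0.05. The part of these measures in the differences with age was not tested.

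Over both sexes, 2 genes were called higher in old lungs, ENSMFAG00000000402 and ENSMFAG00000002115. Within groups, 0 of their 14 relations to the 7 lower genes passed (exact permutation, adjusted over the 14), also at an unadjusted p under 0.05 by Pearson's r. The values of r ran from -0.38 (ENSMFAG00000031492 with ENSMFAG00000000402) to 0.55 (ENSMFAG00000002117 with ENSMFAG00000000402), and 7 of the 14 were above 0.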

How the data were processed

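RNA of whole lung tissue was measured in 16 libraries, 4 of each sex in each age class (old and young). Per the labels' protocols, the authors extracted RNA with TRIzol and prepared libraries with a NEBNext Ultra kit, which does not mark strand. The authors deposited whole-number counts per Ensembl gene, not normalized; for the aligner, counting program, build and annotation: not given in the sources used here. Entries that name no gene (23.1% to 29.9% of reads assigned to no feature, 1.45% to 1.86% to several genes) entered neither library sizes nor tests. These percentages are of the reads in the deposited counts. Entries for unaligned, low-quality and multiply aligned reads hold 0 there, so the percentages are not shares of all reads sequenced. Levels of genes with close copies or antisense partners are uncertain.

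Computed here: CPM over counts assigned to genes; edgeR 4.0.16 quasi-likelihood tests (R 4.3.3, TMM factors, filterByExpr, 1 mean per group, all 16 libraries); and within-group correlations of log2 CPM (prior count 2) with exact permutation tests. Standard errors are the log2 difference over the square root of F, and 95% intervals use the fit's degrees of freedom. Alternatives were DESeq2 1.42.0, limma-voom 3.58.1, RLE factors, other filters (none beyond 1 count; 1 CPM in at least 8 libraries), a replicate block, the share assigned to no feature as a term, and libraries left out. Both kinds of test were also run on simulated data. The outcomes are not given here, and nothing is read from them. The 7 genes, the lists and the tests were chosen with earlier results of these data known. Named besides the 7 are the genes called higher in old and, among genes lower in old, the one just outside the threshold. Of the genes most alike each of the 7, those 2 with the highest r are named too.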

Additional observations from a re-analysis of the deposited data

Results flagged for a closer look

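Old male 1 had 133 CPM of ENSMFAG00000045597, against 81.6 to 85.8 CPM in the other old males. Its gap to the next old male, divided by the range of the group, was 0.917, above Dixon's 95% critical value for 4 libraries. It was the only one of 28 groups of 4 values (7 genes in 4 groups) past that value, and chance alone picks out about 1 in 20 groups.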

How the results depend on the processing

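The 7 genes kept their direction with age in all 24 settings. These settings reuse all or nearly all of the libraries that chose the genes, so nothing is read from this. Of the 7, 4 stayed called with the replicate number as a block (replicate block; lost were ENSMFAG00000002117, ENSMFAG00000031492 and ENSMFAG00000042817) and 2 without old female 1 and old male 3; leaving out 1 library gave 1 to 7. The count of all genes called for age was 22 with RLE factors and with either other filter, 589 with DESeq2, 19 with limma-voom or with the unassigned share as a term, and 1 to 58 without 1 library, against 9. For the interaction it was 55 with DESeq2, 8 without old female 1 and old male 3 and 0 to 3 without 1 library, against 0. For sex it was 33 with DESeq2, 3 with no filter, 2 with the replicate block and 3 to 7 without 1 library, against 5. None of the 7 was called for the interaction or for sex in any of the 24 settings, and none of the 21 pairs in any of 22, where the mean r was between 0.06 and 0.22. Relations to library measures past the threshold numbered 0 with TMM-scaled sizes, 0 without old female 1 and old male 3 and 0 to 2 without 1 library, against 1; these settings, and those of the overlap (5 or 6 of the 7) and of the genes called higher, were chosen after seeing the data. Small uncalled differences changed sign: without 1 library, the sex difference was -0.0452 to 0.0316 for ENSMFAG00000042817, -0.179 to 0.0401 for ENSMFAG00000039249 and -0.000309 to 0.101 for ENSMFAG00000002117, and the interaction of ENSMFAG00000042817 was -0.145 to 0.0205; without old female 1 and old male 3 the sex difference of ENSMFAG00000042817 was 0.0202. The causes were not tested. Replicate numbers were not taken to pair the libraries: of 24 same-numbered pairs from different groups, 5 had deviations over all genes correlated above 0.1 (range -0.46 to 0.41). In old males the CPM of ENSMFAG00000039249 had a coefficient of variation of 41.1%, against 10.4% from counting error at its depth.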

Other observations

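Outside the 7 genes, a search was made for those whose deviations from the group means were most alike. Among 15045 genes with a mean of at least 1 CPM, ENSMFAG00000039823 had the deviations most like those of ENSMFAG00000042817, with r = 0.963 over the 16 libraries. Its level was 125 ± 12.3 CPM in young and 100.1 ± 26.2 CPM in old libraries (SD, n = 8 each), and the age classes overlapped. ENSMFAG00000031028 was most like ENSMFAG00000017322, with r = 0.924, at 72.7 ± 7.62 CPM in young and 55.7 ± 7.97 CPM in old libraries, which also overlapped. Each r is the highest of 15045 and is a description, with no test.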
